A study of Mus musculus with 3 samples.

Results

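Nkx2.2 occupancy was examined at 10 genes of the core Notch pathway, namely the receptors Notch1, Notch2 and Notch3, the ligands Jag1, Jag2 and Dll1, the DNA-binding factor Rbpj, the coactivators Maml2 and Maml3, and the inhibitor Numb. A region was taken for a gene where the deposited gene list of that region names the gene. This gave 32 of the 37271 regions of the series, at 8 of the 10 genes, and Jag2 and Numb had none. Of 21631 protein-coding genes, 57.2% had a region.

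Binding of the homeodomain factor Nkx2.2 was profiled by ChIP-seq in cultured C57BL/6 mouse cells with 1 library per cell state. The OPC library came from dividing oligodendrocyte progenitor cells, isolated from the cortex at postnatal day 7 by an antibody to PDGFRA and grown with the growth factors PDGF-AA (10 ng/mL), CNTF (10 ng/mL) and NT-3 (1 ng/mL). The OL library came from such cells turned into postmitotic oligodendrocytes in culture, by 48 h without PDGF-AA and with T3, a thyroid hormone, at 40 ng/mL. Both libraries are labelled with 1.5e7 cells, no genetic change is labelled in either, and the labels do not say how many animals were pooled. An input library was not analysed here, and ChIP signal does not measure expression, so the labelled cell types could not be checked by marker levels.

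Notch receptors are single-pass membrane proteins that are cleaved when a Jagged or Delta-like ligand on a neighbouring cell binds them. The freed intracellular domain enters the nucleus and joins RBPJ and a Mastermind-like coactivator on DNA, which switches on targets such as the Hes and Hey repressor genes. In the oligodendrocyte lineage, Notch1 activated by Jagged1 is known for holding progenitors back from differentiation, while Numb opposes the receptor.

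Values are the deposited average signal of a region in each library, in the authors' signal units. The ratio of a region is log2((OL + 1) / (OPC + 1)), with a pseudocount of 1 unit that understates the ratio of weak regions. With 1 library per state no difference has a replicate check, the states were not tested against each other and no p-value is printed. The number of reads behind each value is unknown.

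Most of the 32 regions were called in the OL library, and a smaller part in the OPC library. A called interval in OL was marked at 29 regions (90.6%, exact 95% interval 75 to 98.0%), beside 85.3% of all regions. In OPC 14 regions were marked (43.8%, 26.4 to 62.3%), beside 38.6% of all regions. Calls in both libraries were seen at 11 (34.4%, 18.6 to 53.2%), beside 23.8%. The other regions were called in OL only at 18 positions, beside 61.4% of all regions, and in OPC only at 3, beside 14.7%. The intervals given are Clopper-Pearson intervals that cover counting error over regions only, and all 3 intervals contain the share over all regions, so a difference of the Notch regions from all regions in their calls was not detectable with 32 regions. All such intervals here treat regions as independent, though several regions share a gene.

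The signal ratios of the Notch regions also lay near those of the whole table. The median log2 ratio was 0.69, against 0.74 over all regions and 0.74 over the 26342 regions with a listed gene. More signal in OL than in OPC was seen at 24 of 32 regions (75%), beside 77.4% of all regions. Ratios of at least 1 on the log2 scale were found at 13 regions (40.6%, 23.7 to 59.4%), beside 37.5% of all regions. A ratio of -1 or less was found at 3 (9.38%, 1.98 to 25.0%), beside 7.03%, and these 3 were 2 regions in Maml2 and 1 at the start of Dll1. With OL rescaled so that regions called in both libraries had a median of 0, a shift of 0.24 on the log2 scale, the counts were 7 and 3, beside 27.2% and 10.1% of all regions on that scale.

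**Figure D1:**
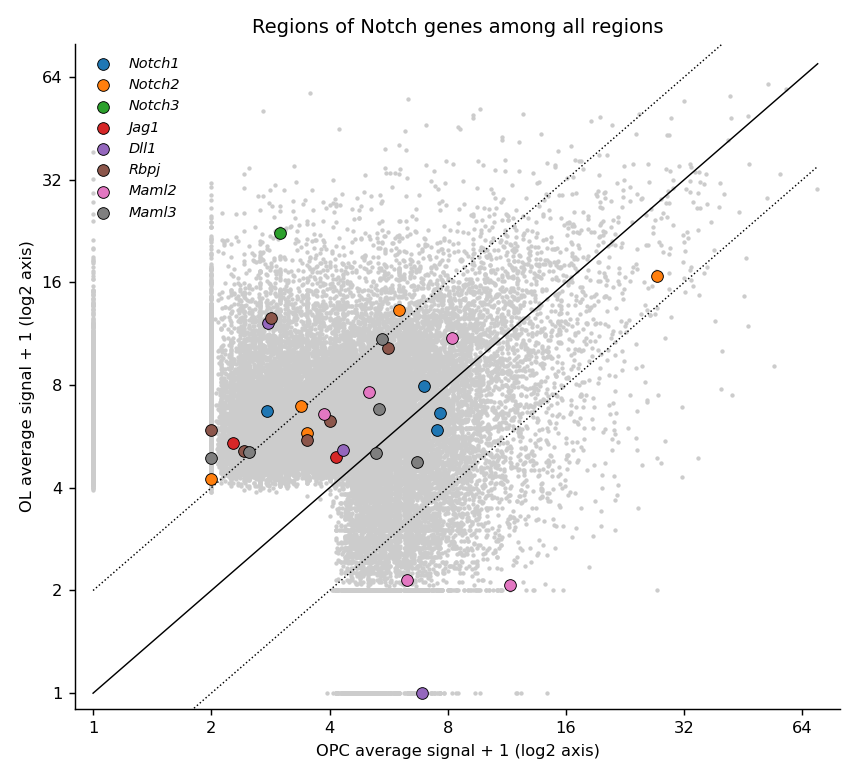
OPC average signal plus 1 (x axis) and OL average signal plus 1 (y axis), both on log2 axes, for all 37271 regions (grey) and the 32 regions of Notch genes (coloured by gene). The solid line marks equal values and the dotted lines a log2 ratio of 1 and -1. Notch3 (2.00 and 21.4), Notch2 (26.3 and 15.7), a Maml2 region (OPC 10.53, OL 1.07) and a Dll1 region listed at 0 in OL lie farthest from the main body of the coloured points.

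The Notch regions were mostly intragenic. A position inside the gene was deposited for 28 of them (87.5%, 71.0 to 96.5%), while 69.1% of regions with a listed gene lay in a gene. Of the 32 regions, 26 (81.2%, 63.6 to 92.8%) were in the gene and more than 10 kb from its start, against 47.1% of regions with a listed gene. Only 3 (9.38%, 1.98 to 25.0%) had their middle within 1 kb of the member's start, against 25.1% of regions with a listed gene, where a start of any listed gene counts. The authors' promoter feature was assigned to 4 of the 32 (12.5%, 3.51 to 29.0%), against 37.3% of regions with a listed gene. These were the same 3 and the Notch1 region 2717 bp into the gene. CpG islands were assigned to 6 of the 32 (18.8%, 7.21 to 36.4%), against 24.4% of regions with a listed gene. Gene length was not matched in these shares, and long genes offer more intragenic sequence. Distances run from the middle of the region to the single start that the authors used for each gene. Of the 32 regions, 29 list the member alone, and the other 3 are those of Dll1, which also list LOC100041314.

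**Figure D2:**
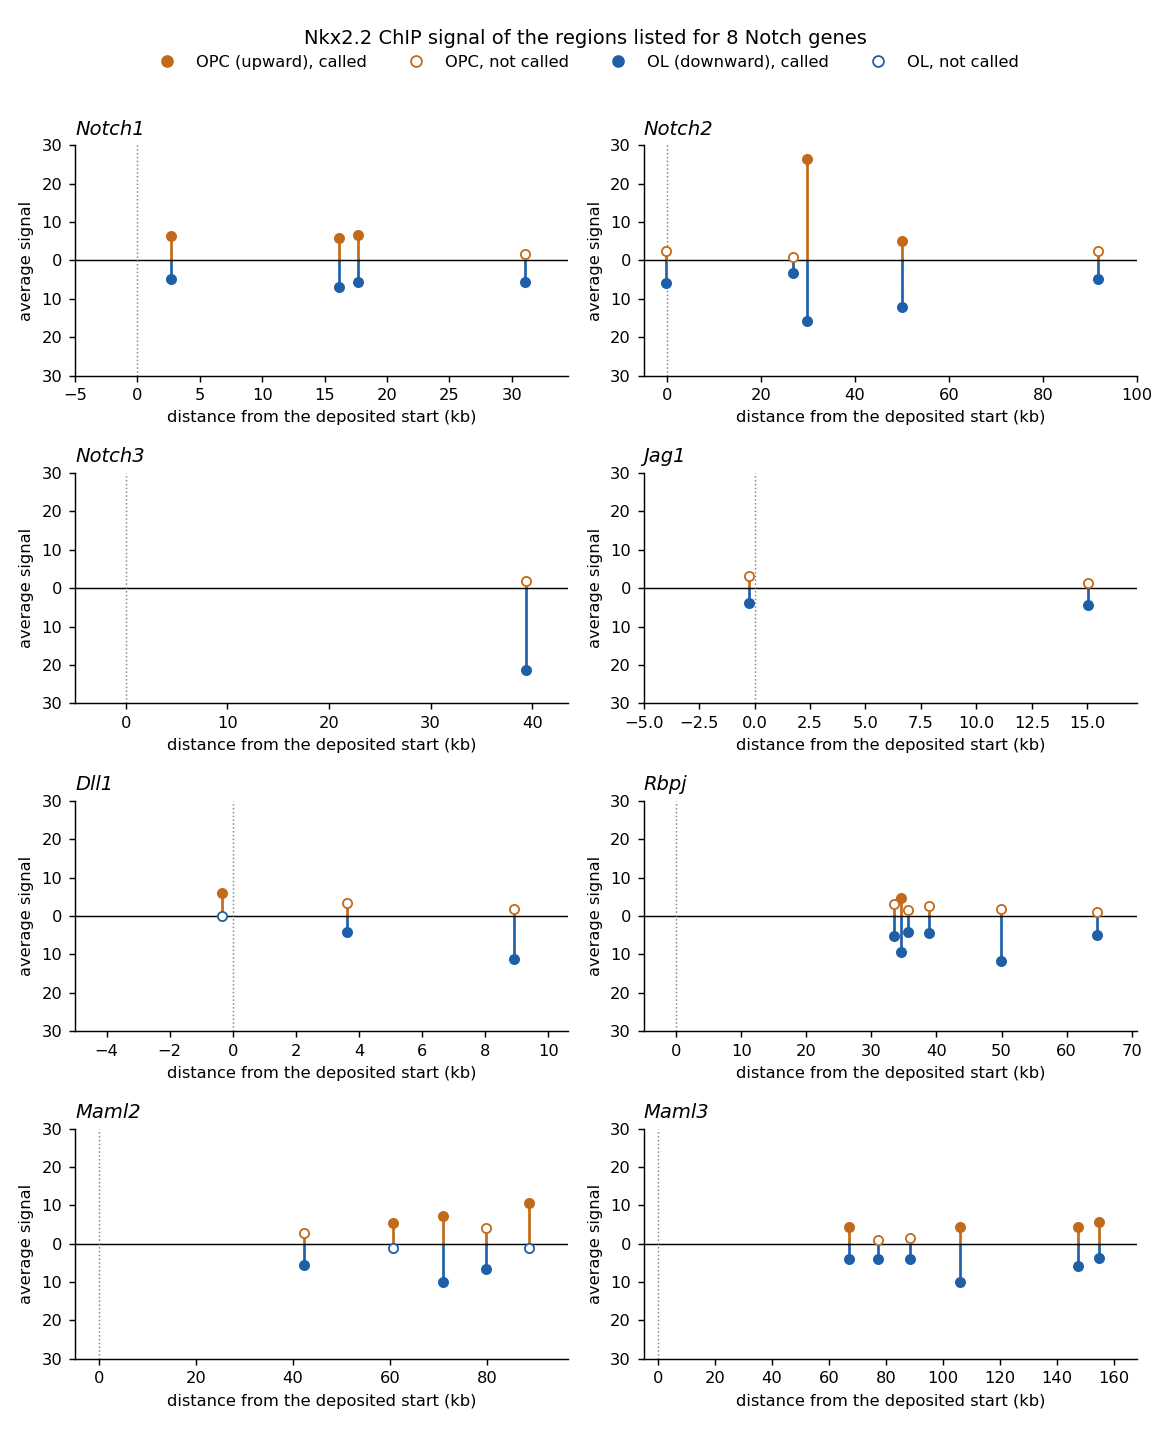
Average signal (y axis, authors' units) of each region against its distance from the deposited gene start in kb (x axis, scaled by gene), with OPC drawn upward and OL downward, filled where the library has a called interval. The tallest OPC value is the Notch2 region at 29.7 kb, the tallest OL value is the Notch3 region, and the 3 regions without an OL call lie in Maml2 and at the start of Dll1.

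The 3 regions at gene starts belong to Notch2, Jag1 and Dll1, and each was assigned a CpG island. The Notch2 region (chr3:97816987-97817639, mm9) had 2.38 in OPC and 5.95 in OL and was called in OL only. Relative to the deposited start it ran from -474 to 178 bp. The Jag1 region (chr2:136942051-136942539) had 3.14 in OPC and 3.93 in OL, was called in OL only, and ran from -472 to 16 bp. The Dll1 region (chr17:15512670-15513132) ran from -581 to -119 bp, so it ended short of the start. It had 5.87 in OPC and was listed at 0 in OL, with a call in OPC only. Among these 3 regions the Dll1 one was thus higher in OPC, while the other two were higher in OL.

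The promoters of these 3 genes are shown because they are the Notch gene starts under or beside a region. They are RefSeq windows of 300 bases from build GRCm38.p6, from 250 bases before the start to 50 after it, on the strand of the gene. The deposited coordinates are mm9 and were not converted, and RefSeq lists 2 starts for Dll1, 1109 bp apart, of which the one used by the authors is not known. Capitals mark CG dinucleotides.

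Notch2 (chr3:98013288-98013587, plus strand): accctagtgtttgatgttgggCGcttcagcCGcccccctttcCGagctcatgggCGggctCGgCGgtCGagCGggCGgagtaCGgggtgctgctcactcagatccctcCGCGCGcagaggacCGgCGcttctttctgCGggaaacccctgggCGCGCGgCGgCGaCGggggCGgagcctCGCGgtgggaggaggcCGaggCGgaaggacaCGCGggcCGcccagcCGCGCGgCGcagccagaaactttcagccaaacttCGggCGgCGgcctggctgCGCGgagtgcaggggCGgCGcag

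Jag1 (chr2:137116471-137116770, minus strand): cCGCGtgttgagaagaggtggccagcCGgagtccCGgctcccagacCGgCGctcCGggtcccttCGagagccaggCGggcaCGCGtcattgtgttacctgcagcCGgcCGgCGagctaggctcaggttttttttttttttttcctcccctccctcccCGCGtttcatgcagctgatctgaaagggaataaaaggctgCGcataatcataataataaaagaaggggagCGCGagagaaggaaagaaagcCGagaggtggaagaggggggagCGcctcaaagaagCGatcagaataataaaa

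Dll1, first start (chr17:15375774-15376073, minus strand): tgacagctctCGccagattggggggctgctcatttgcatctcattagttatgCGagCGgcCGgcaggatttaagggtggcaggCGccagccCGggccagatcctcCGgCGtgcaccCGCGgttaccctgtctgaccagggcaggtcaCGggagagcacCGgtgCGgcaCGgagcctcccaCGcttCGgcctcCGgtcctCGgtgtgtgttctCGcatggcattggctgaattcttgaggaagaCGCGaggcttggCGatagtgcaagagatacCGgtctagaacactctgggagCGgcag

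Dll1, second start (chr17:15376883-15377182, minus strand): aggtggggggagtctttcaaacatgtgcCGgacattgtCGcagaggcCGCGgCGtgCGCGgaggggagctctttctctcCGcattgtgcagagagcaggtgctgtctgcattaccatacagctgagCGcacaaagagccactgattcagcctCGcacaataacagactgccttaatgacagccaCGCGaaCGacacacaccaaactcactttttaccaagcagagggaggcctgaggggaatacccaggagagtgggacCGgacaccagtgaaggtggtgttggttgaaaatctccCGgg

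The Notch2 window held 41 CG dinucleotides, more than 96.5% of the 32851 RefSeq windows of this length, and had a GC content of 73%. The Jag1 window held 22, and the Dll1 windows 24 and 15, while the median over all windows was 7. The core letters of NK2-class homeodomain sites, AAGTG, were searched on both strands and occur in 46.4% of all windows. They were found once, in the second Dll1 window at base 207 on the opposite strand, and not in the other three. Measured from the second start, that hit lies nearer the start than the Dll1 region, which ended at -119 bp. Measured from the first start, it lies farther upstream than that region, which began at -581 bp. If the deposited start is either of these RefSeq starts, which the unconverted mm9 coordinates do not show, the hit lay outside the region. The core letters bound by RBPJ, TGGGAA, occur on either strand in 25.6% of all windows and in none of these 4.

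Among the receptors, all 10 regions had an OL call and 5 an OPC call, beside 85.3% and 38.6% of all regions. The exact intervals, 69.2 to 100% and 18.7 to 81.3%, contain those shares. Notch1, the receptor best known in this lineage, had 4 regions of moderate signal, 3 of them called in both libraries. At 2717 bp into the gene the values were 6.50 in OPC and 4.91 in OL, and at 17716 bp they were 6.67 and 5.61. At 16144 bp, in a region of 1471 bp that is the longest of the 32, they were 5.96 and 6.93. Their log2 ratios lay close to 0, at -0.34, -0.21 and 0.19. The fourth, 31068 bp into the gene (chr2:26327737-26328441), had 1.78 in OPC and 5.71 in OL, giving a log2 ratio of 1.27, and was called in OL only.

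Notch2 held the strongest OPC value of the 32 regions, and its regions did not all differ between the libraries in 1 direction. The region 29695 bp into the gene (chr3:97846578-97847735) had 26.3 in OPC and 15.7 in OL, giving a log2 ratio of -0.71. It ranked 89 of 37271 by OPC signal and 939 by OL signal. The highest signal inside it was 69 in OPC and 57 in OL, giving a log2 ratio of -0.27, so the libraries were closer by that measure. The region at 50005 bp (chr3:97867051-97867882) had the opposite sign, with 5 in OPC and 12.2 in OL and a log2 ratio of 1.14, and both regions were called in both libraries. The other 3 regions were called in OL only. At 26813 bp the values were 1.00 and 3.23, at 91697 bp 2.50 and 4.77, and at the start 2.38 and 5.95. Thus 4 of the 5 Notch2 regions had more OL signal and the strongest had more OPC signal.

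Notch3, a receptor known from vascular smooth muscle and pericytes, had a single region, 39416 bp into the gene (chr17:32263976-32264787). It had 2.00 in OPC and 21.4 in OL, with an OL call only. Its log2 ratio of 2.90 was the largest of the 32, and ranked 560 of all 37271 regions. The OL value ranked 344, while the OPC value ranked 24826. The highest signal in the region was 3 in OPC and 76 in OL.

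Among the ligands, none of the 5 regions was called in both libraries, beside 23.8% of all regions. The exact interval, 0 to 52.2%, contains that share. Jag1, the Jagged ligand that neurons and their axons present to progenitors, had 2 weak regions, both called in OL only. The one at 15032 bp into the gene had 1.27 in OPC and 4.40 in OL, giving a log2 ratio of 1.25. The one at the start, with 3.14 and 3.93, had a log2 ratio of 0.25. Dll1, a Delta-like ligand, had differences of opposite sign at its 2 ends. Beside the start region, with 5.87 in OPC and listed at 0 in OL, a region downstream of the gene and 8925 bp from its start (chr17:15503291-15503961) had 1.79 in OPC and 11.2 in OL, giving a log2 ratio of 2.13. The remaining region, 3618 bp into the gene, had 3.33 and 4.16. The 2 latter regions were called in OL only.

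Jag2 and Numb had no region, under their symbols or under an older name in the RefSeq gene table. Both lie on chromosome 12, on which 1601 regions were listed, so the chromosome itself is represented. In the order of protein-coding genes in GRCm38.p6, the neighbours of Jag2 are Gpr132, with 2 regions, and Nudt14, with none. Those of Numb are Papln, with 1 region, and Heatr4, with none. The longest upstream distance in the table at which a gene is still listed is 10534 bp, so a distant region would not name either gene.

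Rbpj, which carries the intracellular domain to DNA, had 6 regions. All were called in OL and 1 in OPC, and all had more OL than OPC signal. Over all regions these shares were 85.3%, 38.6% and 77.4%. The exact intervals for the 6 regions, 54.1 to 100%, 0.42 to 64.1% and 54.1 to 100%, contain them. They treat the 6 regions as independent, although 3 of these lie within 2714 bp. The highest OL value was at 49885 bp from the deposited start (chr5:53996566-53997241), with 1.83 in OPC and 11.6 in OL and a log2 ratio of 2.16. The region at 64647 bp had 1.00 and 4.90, and that at 38834 bp 2.50 and 4.54.

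Of the 6 Rbpj regions, only a cluster of 3 was assigned CpG islands. Islands of the gene outside the listed regions are not given. The 3 regions lay within 2714 bp (chr5:53980198-53982912), 33535 to 35634 bp from the deposited start, and were separated by gaps of 190 and 321 bp. From the first to the third the OPC values were 3.00, 4.64 and 1.43. The OL values in the same order were 5.27, 9.28 and 4.12. The middle region was the only one of the 6 called in both libraries. The authors assigned no promoter feature to any of the 3. RefSeq lists 2 starts for Rbpj in GRCm38.p6, 140 bp apart, and whether these lie at the cluster cannot be read from the mm9 coordinates.

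The 2 Mastermind-like coactivators, which bridge the intracellular domain and RBPJ to the transcription machinery, had 11 regions in all, every one of them inside the gene and more than 40 kb from the deposited start. RefSeq lists 2 starts for Maml2 in GRCm38.p6, 364502 bp apart, so distances in this gene depend on the start that the authors used. Maml2 had 2 of the 3 regions that were called in OPC only. The region at 88770 bp (chr9:13503719-13504263) had 10.53 in OPC and 1.07 in OL, giving a log2 ratio of -2.48, which ranked 125 of all regions toward OPC. Its highest signal was 21 in OPC and 2 in OL. The region at 60540 bp (chr9:13475485-13476037) had 5.29 and 1.14, a log2 ratio of -1.55. Between them, at 70873 bp, a region of 1388 bp was called in both libraries with 7.21 in OPC and 9.98 in OL. The regions at 42239 and 79930 bp, called in OL only, had 2.88 and 4.05 in OPC and 5.60 and 6.62 in OL. Along Maml2, regions with more OPC signal were thus interspersed with regions with more OL signal.

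Maml3 had 6 regions of low to moderate signal, 4 called in both libraries and 2 in OL only. The highest, 106142 bp from the start (chr3:51553638-51554490), had 4.45 in OPC and 9.92 in OL, giving a log2 ratio of 1.00, just at the threshold. The 2 OL-only regions, at 88546 and 77382 bp, had 1.5 and 1.00 in OPC and 4.09 and 3.90 in OL. The regions at 154784 bp (5.68 in OPC and 3.75 in OL) and 67115 bp (4.27 and 4.06) had more OPC signal, and that at 147315 bp had 4.33 and 5.80. No Maml3 region had a log2 ratio of -1 or less. The 3 regions given here with 1.00 in OPC, at 77382 bp in Maml3, 26813 bp in Notch2 and 64647 bp in Rbpj, also had a highest OPC signal of 1.

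**Figure D3:**
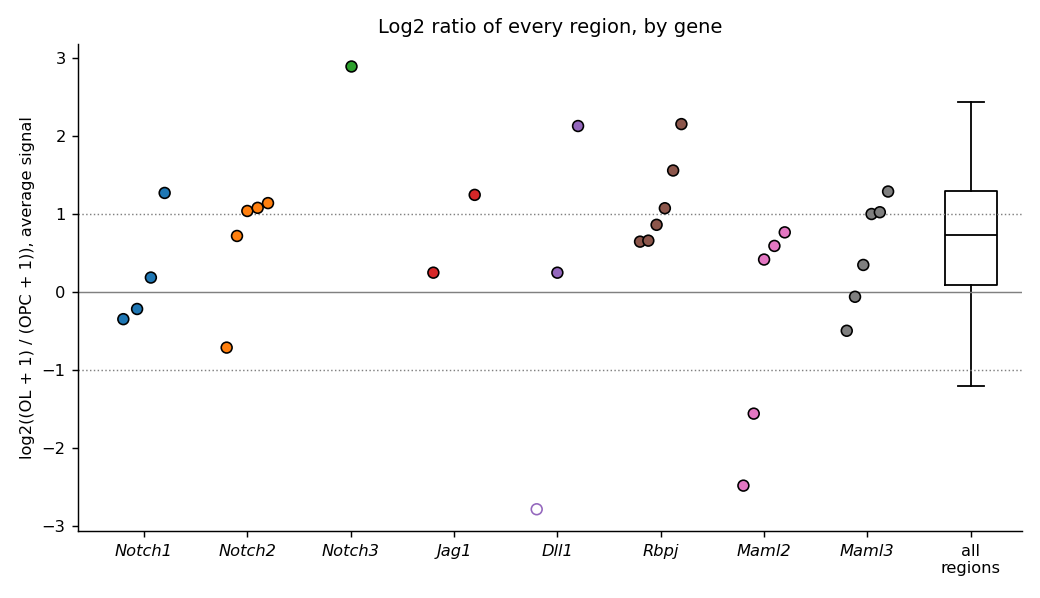
Log2 ratio of OL to OPC average signal (y axis) for each of the 32 regions, by gene, beside all 37271 regions (box, quartiles with the median of 0.74; whiskers, percentiles 5 and 95). All 6 Rbpj regions lie above 0, Maml2 spans -2.48 to 0.77, and the open point is the Dll1 region listed at 0 in OL, whose height depends on the pseudocount.

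Taken per gene, calls in OPC were present at 6 of the 10 genes and calls in OL at 8. Of 21631 protein-coding genes in the RefSeq table, 33.3% had such a call in OPC and 54.5% in OL. The 8 genes with a region had 1 to 6 regions each, with a median of 4.5, against 2 over the 12366 protein-coding genes with a region. At the region with the highest signal, 5 genes reached a log2 ratio of 1 or more, namely Notch3, Rbpj, Dll1, Jag1 and Maml3, while Maml2 was at -1 or less. Over protein-coding genes with a region, 34.9% had 1 or more and 3.95% had -1 or less. The value at the highest region did not stand for the gene as a whole. The median over the 8 genes was 1.13 at the highest region and 0.59 for the mean over all regions of each gene, against 0.73 and 0.68 over protein-coding genes.

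The order of the 8 genes by their highest signal was Notch2 (26.3 in OPC), Notch3 (21.4 in OL), Rbpj (11.6 in OL), Dll1 (11.2 in OL), Maml2 (10.53 in OPC), Maml3 (9.92 in OL), Notch1 (6.93 in OL) and Jag1 (4.40 in OL). Without replicates there is no spread by which neighbours in this order could be told apart.

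Across the wider pathway most genes also carried an OL call. Of 44 other genes, covering further ligands and receptors, glycosylation, cleavage, ubiquitination, nuclear cofactors and targets, 40 had a region, beside 57.2% of protein-coding genes. Of the 44, 23 had an OPC call and 40 an OL call, beside 33.3% and 54.5% of all protein-coding genes. Among the 12366 protein-coding genes with a region, 7203 had an OPC call and 11793 an OL call. Dlk1, Dlk2, Psen2 and Mib2 had no region. The median log2 ratio at the highest region was 0.75, with 16 genes at 1 or more and 2 at -1 or less, beside 34.9% and 3.95% of protein-coding genes with a region. Gene length was not matched here either. All 7 target genes in the list, Nrarp, Hes1, Hes5, Hes6, Hey1, Hey2 and Heyl, had a region. All 7 had an OL call and 5 an OPC call, beside 11793 and 7203 of the 12366 protein-coding genes with a region. This list was drawn up with earlier results of these data known.

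Nrarp, a Notch target that feeds back to inhibit the pathway, had 3 regions, the highest 8820 bp before its start, with 3.75 in OPC and 23.8 in OL (chr2:25027136-25027780), giving a log2 ratio of 2.38, against -0.61 and 0.11 at the others. Cntn1, the gene of contactin, which is known as a non-classical Notch ligand in oligodendrocyte maturation, had the highest value of the list. At 9118 bp into the gene (chr15:91967354-91968129) it had 16.3 in OPC and 35.3 in OL, while its other 3 regions were called in OPC only and had more OPC signal. Dner, another non-classical ligand, had 6.43 and 16.9 at 110528 bp into the gene.

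Of the 40 other genes with a region, 5 had more OPC signal at the highest region, while other regions of the same genes had more OL signal. Neurl1a and Dll4 passed none of the limits set for giving values, and the other 3 are given here. Adam10, the protease of the first ligand-induced cleavage, had 6.48 in OPC and 1.25 in OL at 50510 bp into the gene, a log2 ratio of -1.73. Of its other 3 regions, 2 were called in OL only, with log2 ratios of 1.49 and 1.1. Lfng, which adds sugars to the receptors, had 5.36 and 2.00 at a region that also lists Ttyh3, a log2 ratio of -1.08, and 0.26 at its other region. Kat2b, an acetyltransferase that acts with the Notch complex and is listed as Pcaf, had 15.8 and 8.48 at 29118 bp into the gene, a log2 ratio of -0.83. That region also lists EG628822, whose start is nearer to it. Of the 5 Kat2b regions 3 had more OL signal, with log2 ratios of 0.57 to 1.63, and the mean over all 5 was 0.31.

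**Figure D4:**
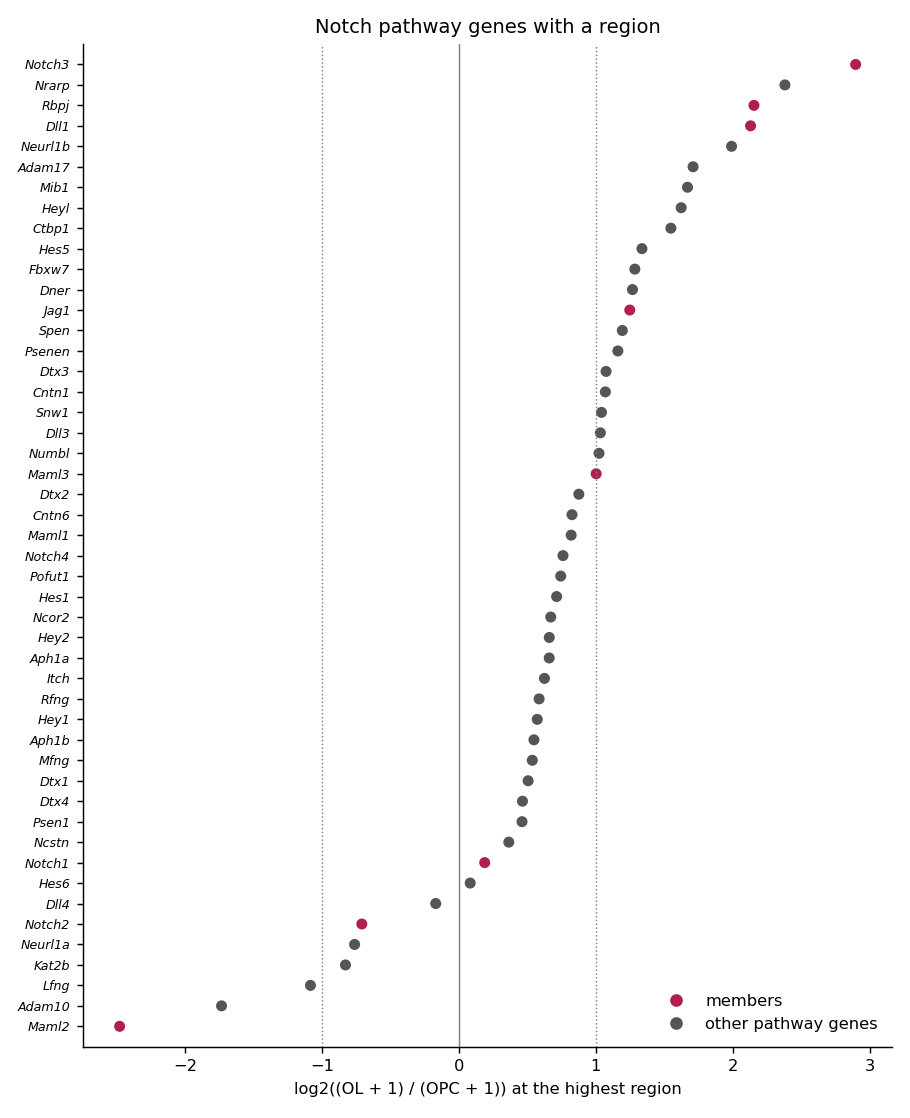
Log2 ratio of OL to OPC average signal (x axis) at the highest region of each Notch pathway gene with a region (y axis, ordered by the ratio), with the 8 members in red and 40 other pathway genes in grey. Notch3 (2.90), Rbpj (2.16) and Dll1 (2.13) lie toward OL and Maml2 (-2.48) lies at the OPC end.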

How the data were processed

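The authors' deposited table lists merged regions with the average and the highest signal of each ChIP library, the calls per library, and nearby genes, per the file headers. Per the submitters' processing notes, the tools were BWA and MACS 1.4.2 and the build mm9. How calls were thresholded against the input and whether the libraries were scaled to each other is not given in the sources used here. A difference in depth between the libraries would shift the ratios in 1 direction. The table does not state if its starts are 0-based or 1-based. Ratios used the average signal with a pseudocount of 1 and no filter. Gene names were matched by symbol, or by a RefSeq (GRCm38.p6) synonym that is no other gene's symbol, on the same chromosome. Promoter sequences of all 10 members matched by symbol. Named were all 10 members with every region, and other pathway genes with a signal of 15 or more, a log2 ratio of 2 or more or of -1 or less at the highest region, or no region. Members and lists were chosen with earlier results of these data known. The ratio and interval steps were tested on simulated data. Python 3.11.15, pandas 2.3.3 and scipy 1.17.1 were used.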

Additional observations from a re-analysis of the deposited data

How the results depend on the processing

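The median log2 ratio of the 32 regions was 0.37 to 0.86 under the alternatives, and the number of regions with more OL signal was 22 to 25 without a filter on signal. Counts past a threshold moved more. Shares over protein-coding genes were not computed under the alternatives, so the counts of genes below have no share to be set beside. With a pseudocount of 5, 3 regions reached a ratio of 1, beside 8.72% of all regions, as did 3 members and 3 other pathway genes, with 0 of the latter at -1 or less and a median of 0.45. With OL rescaled, 7 regions and 9 other pathway genes reached it, with 4 at -1 or less and a median of 0.51. With only regions of signal 5 or more, 7 regions had 1 or more, 3 had -1 or less and 14 had more OL signal. Fewer regions were counted under this filter, so these counts cannot be set against those over the 32 regions. The median was then 0.59, and the shares over all regions were not computed under this filter. With the highest signal in place of the average, 15 of the 32 regions had 1 or more, beside 52.2% of all regions. By that measure 25 other pathway genes had 1 or more, with a median of 1.11, and 0 members had -1 or less. The highest Maml2 region was then another one, with 0.78. With the mean over all regions of a gene, 2 members and 7 other pathway genes had 1 or more and 0 of either had -1 or less. Among the members and the 6 other genes given with values, signs then turned at Notch2 (0.66), Dll1 (-0.13, which includes the region listed at 0), Cntn1 (-0.43), Adam10 (0.17) and Kat2b (0.31). Where a call also needed a signal of 5 or more, 16 regions were called in OL, 10 in OPC and 5 in both. The shares over all regions were not computed for this rule. Leaving out the 3 Dll1 regions, chosen after seeing the data, gave a median of 0.72. No paired analysis was possible because each state has 1 library.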

Other observations

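Regions near the members that the authors did not assign to them were counted for the 7 members with at least 2 regions, within 50 kb of the deposited start, a window chosen after seeing the data. There were 6 such regions, all upstream. At Notch2, Rbpj, Maml2 and Maml3 the 50 kb downstream of the start lies inside the gene. Where regions inside a gene are assigned to it, only upstream regions could be counted there, so their direction is not a result. One lay 20.1 kb upstream of Notch2 (chr3:97796944-97797724) and had 2.2 in OPC and 11.2 in OL, with an OL call only. Notch1 had 2, at 15.6 and 32.1 kb, with 1.36 and 3.12 in OPC and 4.67 and 7.22 in OL. A region 13.6 kb upstream of Rbpj, listed for LOC100041911, had 6.93 in OL and was listed at 0 in OPC. The region 26.6 kb upstream of Maml2 had 3.85 in OPC and was listed at 0 in OL, and one 33.6 kb upstream of Maml3 had 4.67 and 2.43. At Notch1, Notch2 and Rbpj these regions were called in OL only, and at Maml2 and Maml3 in OPC only. The genes that these regions act on, if any, were not tested.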
